A study of Danio rerio with 4 samples.

Results

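The ventricles of zebrafish of 14 mm, at the stage labelled establishment, were compared with those of 18 mm, at the stage labelled expansion, by single-cell RNA sequencing. Both libraries came from wild-type fish of the strain AB, with no treatment, transgene or mutation in either group, and carried the same batch label. The establishment library was made from 1 pool of 18 ventricles of fish aged 2 months, and the expansion library from 1 pool of 12 ventricles of fish aged 2.5 months. Each stage was therefore 1 library of pooled animals without replicates, body length and age changed together, and no test between the stages and no p-value could be given. Libraries of 10 mm (initiation, 1.5 months, 25 ventricles) and 28 mm (maturation, 8 months, 5 ventricles) are given beside the 2 compared libraries where their level sets a value in context.

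Cells were barcodes with at least 2500 unique molecular identifiers (UMIs) and 600 genes, in which genes named mt- took at most 12% of the UMIs, or at most 40% in barcodes rich in sarcomere transcripts. They were sorted into 3 gates by fixed genes. The cardiomyocyte (CM) gate required at least 10 UMIs of ttn.1, ttn.2 and myh7l. The endothelial cell (EC) gate required at least 2 UMIs of cdh5, spock3, aqp8a.1 and f8 and fewer than 3 of the CM genes, and the epicardial gate at least 3 UMIs of gcga, postnb and adh8a with none of cdh5 and spock3. The gates held 4267 cells at establishment and 9353 at expansion, 13620 of the 18644 cells of both libraries that passed the filters and of 32092 in the 4 libraries of the series. The CM gate had 2022 and 2509 cells, the EC gate 2016 and 6279, and the epicardial gate 249 and 625.

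The zebrafish ventricle is a single muscular chamber whose CMs form a compact wall and inner trabeculae. The endocardium, an endothelial sheet, lines the trabeculae, the epicardium covers the outer surface, and coronary vessels spread over that surface while the fish grow from juveniles to adults. CMs draw most of their ATP from oxidative phosphorylation, in which complexes I to IV pass electrons to oxygen and complex V makes ATP. The endocardium senses blood flow and exchanges Notch, neuregulin and other signals with the muscle below it. The epicardium makes retinoic acid, matrix and growth factors and is a source of fibroblasts and mural cells, the pericytes and smooth muscle cells of vessels.

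The libraries held 123557700 UMIs at establishment and 128056006 at expansion, but the cells were sequenced to different depths. The median number of UMIs per cell was 15836.5 at establishment and 6320 at expansion in the CM gate, 6791 and 4914 in the EC gate, and 11374 and 6568 in the epicardial gate. At most 3 barcodes of a gate were shared by the 2 libraries. The marker lists include the gate genes, so that high sums in their own gates follow in part from the choice of cells. CM markers summed to 82611 and 65656.5 counts per 1000000 UMIs of the gate's cells (CPM) in the CM gate against 2383 and 2687 in the EC gate. Endocardium markers summed to 16618 and 19011 CPM in the EC gate, against 998.5 and 3494 in the CM gate and 831 and 959 in the epicardial gate. Markers of coronary ECs summed to 351 and 323 CPM in the EC gate. The endocardium list held the genes of the EC gate and the coronary list none, so that these sums do not show which type prevailed. Epicardium markers, which include keratins that the EC gate expressed too, summed to 12639 and 8674 CPM in the epicardial gate against 8888 and 5898 CPM in the EC gate, and fibroblast markers to 3428 and 3100 CPM, so that the gate did not separate the epicardium from fibroblasts. Free RNA differed: haemoglobin transcripts made up 29.2% of the UMIs of near-empty barcodes at establishment and 1.64% at expansion, and 4.98% and 0.358% of the UMIs of the EC gate. Transcripts listed under the sequence record of the mitochondrial genome, which are not among the genes named mt-, took 7.82% of the UMIs at establishment and 17.6% at expansion in the CM gate, 1.09% and 5.66% in the EC gate, and 1.40% and 5.66% in the epicardial gate. Ribosomal protein transcripts took 15.4% and 11.4%, 23.1% and 16.2%, and 29.7% and 19.8% of the UMIs of the same gates. The part of depth, free RNA and these shares in the differences below was not tested except where a value is given.

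For each gene the UMIs of all cells of a gate were summed per library and expressed as CPM, and the ratio of the 2 libraries is given with a 95% interval that covers counting error only. A gene was counted as different when its CPM differed at least 2-fold and averaged at least 50 CPM. In the CM gate 190 of 1723 genes were higher at expansion (11.0%) and 156 at establishment (9.05%), 20.1% in all. In the EC gate 558 of 2330 genes were higher at expansion (23.9%) and 92 at establishment (3.95%), 27.9% in all. In the epicardial gate 631 of 2351 genes were higher at expansion (26.8%) and 226 at establishment (9.61%), 36.5% in all. The median gene itself was higher at expansion by 0.43 on the log2 scale in the EC gate and by 0.37 in the epicardial gate, against 0.02 in the CM gate. Relative to the median gene, 145 genes of the EC gate were higher at expansion and 383 at establishment, and in the epicardial gate 302 and 456. The share of the different genes that was higher at expansion thus went from 85.8% to 27.5% in the EC gate and from 73.6% to 39.8% in the epicardial gate, and whether most genes of those gates are called higher or lower depends on the scale. In the CM gate the 2 scales gave 54.9% and 53.0%. Counts of list members relative to the median gene are given below. They stand against 145 and 383 of 2330 genes in the EC gate and 302 and 456 of 2351 in the epicardial gate.

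Against the median gene, some groups of genes stood on the same side in all 3 gates. The value given is the median log2 ratio of expansion to establishment of a group, minus that of all genes. For the nuclear genes of oxidative phosphorylation it was −1.14, −1.16 and −1.47 in the CM, EC and epicardial gate. For ribosomal protein genes it was −0.47, −0.96 and −1.001. The mitochondrially encoded genes, named mt-, did not go with the nuclear ones, with −0.07, 0.65 and 0.42. For genes of axon and vessel guidance it was 0.69, 0.62 and 0.97, and for those of the response to the aryl hydrocarbon receptor, a ligand-activated transcription factor, 1.67, 0.61 and 0.77. In CM-gate cells with no UMI of the other gates and of smooth muscle, the value of 1.67 was 0.71 and that of 0.69 was 0.53. The guidance genes took 0.0787% of the UMIs of the median such cell at establishment and 0.0790% at expansion. Without CM-gate cells that had 3 or more UMIs of another gate's genes the 2 values were 0.78 and 0.24. Keratin genes stood at 1.46 in the CM gate and at −1.105 and −1.01 in the other two, where the keratins of the endocardium and epicardium are expressed.

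**Figure D1:**
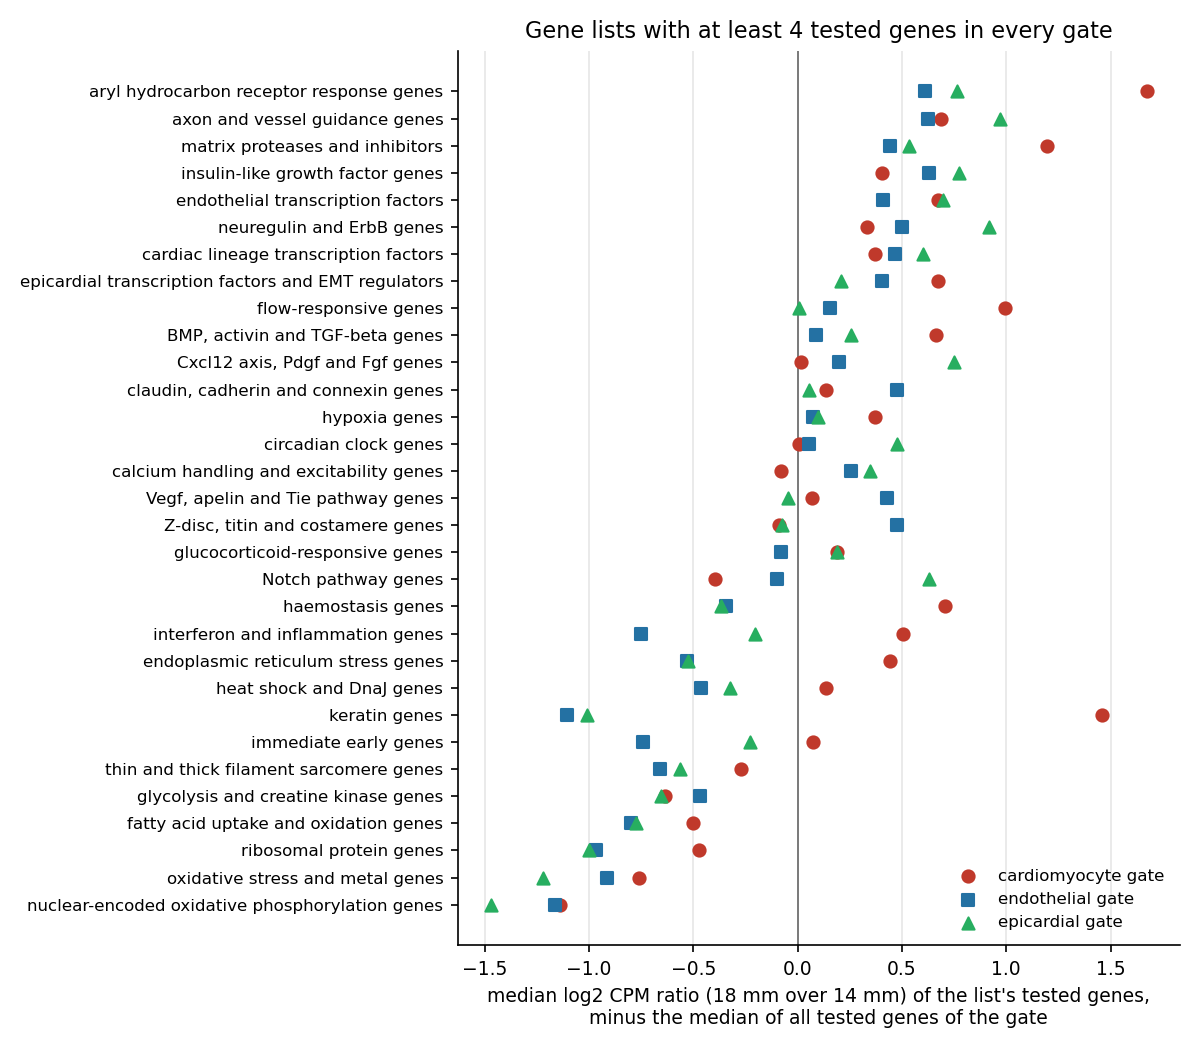
Each point is the median log2 CPM ratio (18 mm over 14 mm) of the tested genes of a list in 1 gate, minus the median of all tested genes of that gate, for lists with at least 4 tested genes in each of the 3 gates. Nuclear oxidative phosphorylation genes lie at the left in all 3 gates (−1.14, −1.16 and −1.47), guidance genes at the right, and keratin genes apart in the CM gate (1.46).

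In the CM gate, most nuclear-encoded transcripts of the respiratory chain and both natriuretic peptides were higher at establishment than at expansion. So were the cardiac actin actc1a, several creatine kinases and the Notch targets her15.1 and her4.1. The nuclear genes of oxidative phosphorylation summed to 68778 CPM at establishment and 33654.7 CPM at expansion, against 35390.8 CPM at 10 mm and 44770.4 CPM at 28 mm, so that the 14 mm library was the highest of the 4. Of the 86 tested, 59 were at least 2-fold higher at establishment and none at expansion, against 9.05% and 11.0% of all genes. The ratio of all 86 was below 1. In the median cell these genes took 7.09% of the UMIs at establishment (quartiles 5.67% and 8.43%) and 3.83% at expansion (2.12% and 4.87%). The mitochondrially encoded genes differed less, with sums of 106641 and 101432 CPM. Of 12 tested, none was at least 2-fold higher at establishment and 1 was at expansion. They took 10.7% and 11.3% of the UMIs of the median cell, shares that the cell filter limits.

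Among the nuclear genes all 5 complexes took part to a like extent. In complex I 26 of 36 tested genes were at least 2-fold higher at establishment, in complex II 3 of 4 and in complex III with cytochrome c 7 of 10. In complex IV 11 of 17 were and in complex V 12 of 19, against 9.05% of all genes of the gate. The median log2 ratio of expansion to establishment lay between −1.05 for complex III and −1.15 for complex II. The largest fold was that of ndufb11, a complex I subunit, with 94.8 CPM at establishment and 17.7 CPM at expansion (5.34-fold, interval 4.77 to 5.996). cox6a1, a subunit of complex IV, had 227 and 50.1 CPM (4.52-fold, 4.23 to 4.84), and uqcrb of complex III 204 and 68.9 CPM (2.96-fold, 2.79 to 3.14). Among the abundant members, the complex V subunit atp5f1b had 1171 CPM at 10 mm, 2271 at 14 mm, 889 at 18 mm and 1341 at 28 mm. The ring subunit atp5mc1 followed the same order, with 847, 1798, 767 and 1325 CPM.

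Other RNA moved with the group. The CM gate at expansion held more RNA of other types: 29.7% of its cells had 3 or more UMIs of the EC genes, against 10.3% at establishment, and 8.97% against 4.85% had 3 or more UMIs of the smooth muscle genes myh11a, rgs5a and tagln. No UMI of the EC, epicardial and smooth muscle genes was held by 1156 and 1109 cells, referred to as CMs without other markers. There the ratio of all 86 genes stayed below 1, and 10 reached 2-fold. Of all 1459 genes tested in those cells 59 were at least 2-fold higher at establishment. Their median log2 ratio there was −0.79, with −0.17 for all genes, and the median cell gave 7.30% and 4.51% of its UMIs to the group. The complex medians lay between −0.73 and −0.88. These CMs summed to 16896416 UMIs at establishment and 7002603 at expansion, so that holding no such UMI was a looser limit at expansion. The part of this in the values of CMs without other markers was not tested. With the mitochondrial transcripts and haemoglobin out of the totals, 38 of 87 genes reached 2-fold and all 87 ratios were below 1. Subtracting free RNA left 47 of 86, thinning each cell to 2500 UMIs 45 of 86, and a mitochondrial limit of 12% for all cells gave 72 of 86. The count of all genes higher at establishment stayed within 1.5 times of its 156 under each of these settings.

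**Figure D2:**
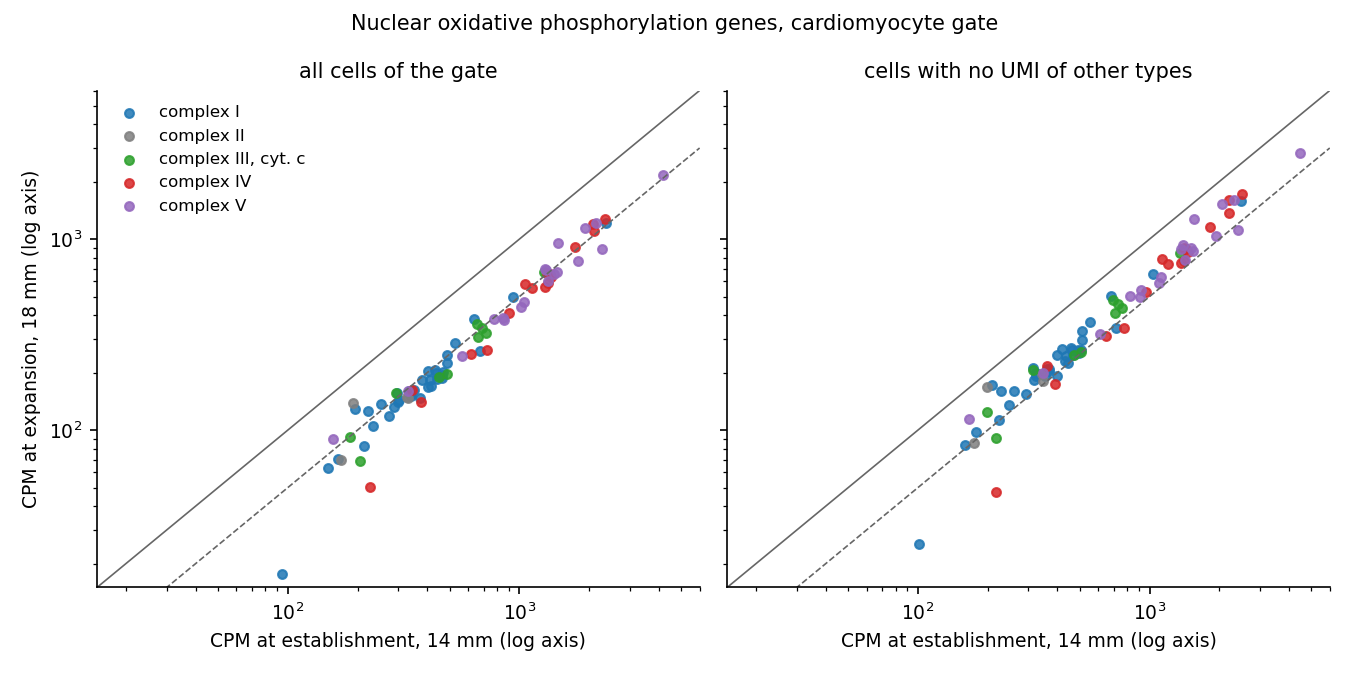
CPM at establishment (horizontal) and at expansion (vertical) of the tested nuclear oxidative phosphorylation genes of the CM gate, both axes logarithmic and coloured by complex, with the solid line at equal values and the dashed line at a 2-fold difference. All 86 points lie below equality in both panels, 59 past the 2-fold line in all cells of the gate (left) and 10 in the cells with no UMI of other types (right).

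The natriuretic peptide genes were among the most abundant transcripts that differed. nppa, the atrial natriuretic peptide, had 1627 CPM at 10 mm, 1484 at 14 mm, 524 at 18 mm and 197 at 28 mm, and was 2.83-fold higher at establishment than at expansion (interval 2.77 to 2.89). nppb, the brain-type peptide, had 1061, 1343, 465 and 178 CPM, a 2.89-fold difference (2.82 to 2.96). Both stood at their 2 higher levels in the 2 smaller fish. With each cell thinned to 2500 UMIs, nppa was found in 74.8% of CM-gate cells at establishment and 52.7% at expansion, while epicardial-gate cells, which should lack it, had 6.43% and 2.88%. In CMs without other markers nppa had 1466 and 721 CPM and nppb 1306 and 587 CPM. At both stages nppb was found more often in cells with nppa than in cells without it. It was seen in 79.3% of the nppa-positive and 50.3% of the nppa-negative cells at establishment, and in 59.0% and 27.3% at expansion. At establishment the nppa-positive cells were somewhat deeper, with a median of 16405 UMIs against 13966, whereas at expansion they were not, with 6175 against 6454.5.

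The Notch target her15.1, a transcriptional repressor, had 168 CPM at 10 mm, 140 at 14 mm, 36.1 at 18 mm and 4.36 at 28 mm, a 3.88-fold difference between the compared stages (3.58 to 4.22). Its relative her4.1 had 97.0 and 42.9 CPM (2.26-fold, 2.09 to 2.44), and these were the 2 of 7 tested Notch pathway genes that were at least 2-fold higher at establishment, against 9.05% of all genes, while 1 of 7 was at expansion. That was the receptor gene notch1b, with 51.1 and 246 CPM, and 16.7 and 29.0 CPM in CMs without other markers, whereas her15.1 kept 130 and 43.4 CPM and her4.1 103 and 54.0 CPM. actc1a, a cardiac alpha-actin, had 3693 CPM at establishment and 1134 at expansion (3.26-fold, 3.21 to 3.30), against 673 CPM at 10 mm and 1408 CPM at 28 mm. It was the only one of 19 tested thin and thick filament genes at least 2-fold higher at establishment, against 9.05% of all genes. Another 2 of the 19 were at least 2-fold higher at expansion, against 11.0% of all genes. In CMs without other markers actc1a had 3992 and 1580 CPM.

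Creatine kinases, which buffer ATP in muscle, and enzymes of glycolysis made up 26 tested genes. Of these, 8 were at least 2-fold lower at expansion and none at least 2-fold higher, against a background of 9.05% and 11.0%. Below the median gene lay 19 of the 26. The largest folds were those of the creatine kinases ckmb, with 196 and 49.4 CPM (3.97-fold, 3.71 to 4.26), and ckmt2a, its mitochondrial form, with 311 and 90.6 CPM (3.43-fold, 3.26 to 3.61). ckma, the most abundant muscle form, had 2149 and 917 CPM. The others were ckmt2b (521 and 242 CPM), ckbb (251 and 107 CPM), the phosphoglycerate mutase pgam2 (504 and 227 CPM), the lactate dehydrogenase ldhba (1617 and 768 CPM) and the muscle enolase eno3 (2963 and 1434 CPM). In CMs without other markers ckma had 2370 and 1237 CPM and eno3 3263 and 1905 CPM, both under 2-fold, while ckmt2a kept 350 and 121 CPM. Of the antioxidant genes 3 of 14 were at least 2-fold higher at establishment, namely thioredoxin txn (129 and 39.2 CPM), the mitochondrial superoxide dismutase sod2 (352 and 142 CPM) and the glutathione peroxidase gpx4b (225 and 93.0 CPM). The RNA-editing enzyme relative apobec2a, expressed in muscle, had 107 and 29.9 CPM and the nucleosome-binding protein gene hmgn2 208 and 71.3 CPM.

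The genes that stood highest at expansion in the CM gate are known from other cell types. rgs5a, a gene of pericytes, had 12.2 CPM at establishment and 393 at expansion (32.3-fold, interval 29.2 to 35.9). The smooth muscle myosin myh11a had 7.24 and 175 CPM (24.2-fold, 21.2 to 27.7) and tpm1, a tropomyosin, 8.53 and 117 CPM. The endocardial gene doc2b had 19.9 and 202 CPM, vim, an intermediate filament of mesenchymal cells, 13.3 and 112 CPM, and krt18b, a keratin, 24.8 and 197 CPM. The other 6 genes named by the rule, gfpt2, ahnak, adam12, ebf1a, fgd5a and fhl3a, had ratios between 7.58 and 12.0.

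In CMs without other markers these genes were at 46.7 CPM or less at both stages, and 9 of the 12 were still at least 2-fold higher at expansion. Some of the 9 rested on few UMIs, such as fgd5a with 0.24 and 1.00 CPM and ebf1a with 0.47 and 2.86 CPM. No interval is given for these ratios. rgs5a was found in 195 of 2509 cells at expansion, and 81.0% of those held myh11a too, against 1.51% of the cells without rgs5a. In CMs without other markers, from which rgs5a and myh11a were left out by the choice of cells, tpm1 had 1.24 and 1.57 CPM, doc2b 1.302 and 4.57, vim 0.71 and 4.43, and krt18b 2.07 and 9.43. ahnak, a large scaffold protein, kept 10.2 and 46.7 CPM there. Of the 190 genes higher at expansion 47 were still so without cells that had 3 or more UMIs of another gate's genes, and 10 in CMs without other markers, where 15 genes were higher at expansion in all. Of the 156 genes higher at establishment 73 and 51 remained under the same selections. The keratin genes, of which 6 of 7 were higher at expansion against 11.0% of all genes, had 1.27 on the log2 scale above the median gene in those CMs, but at levels such as that of krt91, which had 61.2 and 344 CPM in the gate and 5.50 and 10.0 CPM in CMs without other markers.

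**Figure D3:**
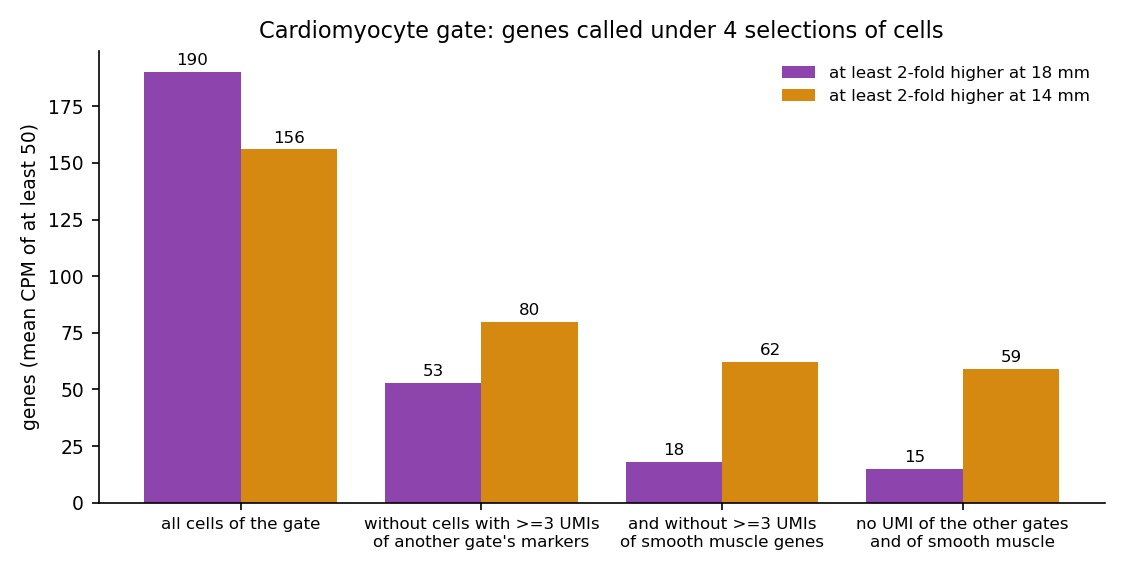
Number of genes of the CM gate at least 2-fold higher at 18 mm and at 14 mm under 4 selections of cells, among genes with a mean of at least 50 CPM. The genes higher at 18 mm go from 190 in all cells to 15 in the cells with no UMI of the other gates and of smooth muscle, and those higher at 14 mm from 156 to 59.

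A smaller group of genes was higher at expansion within CMs without other markers. myh6, the atrial myosin heavy chain of zebrafish, had 104 CPM at establishment and 436 at expansion there (4.17-fold, interval 3.93 to 4.43), and 94.8 and 256 CPM in the whole gate, far below its 2890 CPM at 10 mm. It was found in few cells, 2.23% of the gate at establishment and 2.95% at expansion at 2500 UMIs, so that its level was set by a small number of cells. pparab, which encodes a nuclear receptor of fatty acid metabolism, had 59.5 and 131 CPM in CMs without other markers (2.204-fold, 2.01 to 2.41). The glucose-6-phosphatase g6pcb had 61.0 and 124 CPM and the ankyrin ank3a, a membrane anchor of ion channels, 141 and 285 CPM. ccnd2a, a D-type cyclin, had 36.8 and 76.8 CPM there, and the matricellular gene cyr61 66.6 and 151 CPM, both of which were also in free RNA at expansion (120 and 307 CPM). Close below the 2-fold limit were the sodium channel subunit scn3b (153 and 289 CPM), the sarcomere-associated obscurin obscnb (112 and 207 CPM) and xirp2a of the intercalated disc (49.7 and 89.0 CPM). Genes of the Z-disc, titin and costameres took 1.52% of the UMIs of the median CM without other markers at establishment and 2.13% at expansion. The thin and thick filament genes took 9.19% and 7.42%. Gate genes were not taken out of these shares, and the thin and thick filament list holds the gate gene myh7l. The shares can therefore follow in part from the choice of cells, which was not tested. None of the 24 tested Z-disc, titin and costamere genes, with gate genes left out, differed 2-fold in the whole gate.

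In the EC gate, doc2b, several adhesion and guidance genes, the channels piezo1, piezo2a.2 and trpv4, and ahr2 with its targets were higher at expansion, and cdkn1a, cxcl8a, several immediate early genes, hmgn2 and red blood cell transcripts were higher at establishment. Cells with markers of another gate were 2.03% and 2.58% of the gate. Without these and cells with 20 or more haemoglobin UMIs, which left 1401 of the 2016 cells at establishment and 6067 of 6279 at expansion, the 12 genes named at expansion and 11 of the 12 named at establishment stayed at least 2-fold apart. All 12 genes named in each direction stayed at least 2-fold apart relative to the median gene. doc2b, a marker of these cells that encodes a calcium sensor of vesicle release, had 291 CPM at 10 mm, 323 at 14 mm, 1187 at 18 mm and 906 at 28 mm (3.67-fold, interval 3.57 to 3.77). It was found in 46.2% of the cells at establishment and 78.3% at expansion after thinning to 2500 UMIs, against 2.37% and 16.1% in the CM gate, and its level in free RNA was 8.67 and 130 CPM. The cell adhesion gene sdk1a had 479, 180, 703 and 491 CPM along the 4 stages and the spectrin sptbn1, part of the membrane skeleton, 302, 67.4, 312 and 338 CPM. For both, 14 mm was the lowest of the 4 libraries, which follows in part from their choice as lower at 14 mm than at 18 mm. The protocadherin dchs1a had 36.6, 47.2, 245 and 116 CPM and its relative pcdh1b 329, 80.3, 330 and 180 CPM.

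The remaining genes named by the rule were of several kinds. syne1b, which ties the nucleus to the cytoskeleton, was the largest fold, with 26.0 and 145 CPM (5.57-fold, 5.09 to 6.11). The matrix glycoprotein emilin2a had 30.0 and 144 CPM. The interferon-induced membrane protein ifitm1 had 190 CPM at 10 mm, 100 at 14 mm, 431 at 18 mm and 31.8 at 28 mm, but its free RNA also differed, with 47.7 and 254 CPM. The Wnt pathway scaffold apc had 37.3 and 151 CPM and the cytokine receptor cntfr 29.3 and 117 CPM. The adaptor of receptor tyrosine kinases shc1 had 116 and 424 CPM and rc3h2, which promotes mRNA decay, 41.6 and 154 CPM.

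Among the transcription factors nfatc1, an endocardial regulator, had 362 CPM at 10 mm, 193 at 14 mm, 512 at 18 mm and 453 at 28 mm (2.65-fold, interval 2.56 to 2.74). The hypoxia-inducible factor epas1b had 422 and 988 CPM and mef2ca 63.7 and 192 CPM. Of 21 tested endothelial transcription factors 7 were at least 2-fold higher at expansion and 1 at establishment, against 23.9% and 3.95% of all genes, the latter being lmo2, a partner of blood and vessel factors, with 218 and 101 CPM. Relative to the median gene these counts were 2 and 4 of 21, against 145 and 383 of all 2330 genes. The Notch receptor gene notch1b had 562 and 1210 CPM, against 985 CPM at 10 mm and 1035 at 28 mm, and the Vegf receptor gene kdr 194 and 393 CPM. notch1b and kdr were near the 2-fold limit, with ratios of 2.15 and 2.03. Relative to the median gene, whose ratio was 1.34, they were no longer past it, with 1.60 and 1.51. nfatc1 and epas1b were not past it on that scale either.

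Among genes by which ECs sense flow and stretch, 4 that were higher at expansion are given first, and the counts of the flow-responsive list follow. The mechanosensitive channel piezo1 had 614 CPM at 10 mm, 220 at 14 mm, 572 at 18 mm and 275 at 28 mm (2.59-fold, 2.51 to 2.68), and piezo2a.2, of the same family, 438, 98.4, 302 and 170 CPM (3.07-fold, 2.92 to 3.22). The channel trpv4 had 144, 80.4, 245 and 200 CPM and heg1, a receptor of the junctions that the endocardium needs for heart growth, 97.4, 57.3, 169 and 153 CPM. All 4 were lowest at 14 mm, which follows in part from their choice as lower at 14 mm than at 18 mm. piezo1 was found in 34.42% of cells at establishment and 58.1% at expansion at 2500 UMIs. Cells with piezo1 held piezo2a.2 more often than cells without it, in 24.1% against 15.7% at establishment and in 47.1% against 29.6% at expansion. Of the 18 tested genes of the flow-responsive list 7 were at least 2-fold higher at expansion and none at establishment, against 23.9% and 3.95% of all genes. Relative to the median gene these counts were 3 and 3, against 145 and 383 of all 2330 genes. The list's median log2 ratio was 0.15 above that of all genes. Relative to the median gene, whose ratio was 1.34, piezo1 was no longer past the 2-fold limit.

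Of the guidance genes 15 of 24 tested were at least 2-fold higher at expansion and none at establishment, against 23.9% and 3.95% of all genes. Relative to the median gene 2 of 24 were higher at expansion, against 145 of all 2330 genes. The guidance genes took 0.36% of the UMIs of the median cell at establishment and 0.73% at expansion. ntn1a, a netrin, had 68.4 and 205 CPM (2.99-fold, interval 2.82 to 3.17). The semaphorin sema4c had 697 CPM at 10 mm, 279 at 14 mm, 806 at 18 mm and 660 at 28 mm, and the semaphorin receptor plxna1a 200, 120, 313 and 211 CPM. The ephrin receptor ephb4a had 47.4 and 104 CPM and the neuropilin nrp1a 83.4 and 169 CPM, near the 2-fold limit.

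Of 19 tested BMP, activin and TGF-beta genes 6 were at least 2-fold higher at expansion and 1 at establishment, against 23.9% and 3.95% of all genes. Relative to the median gene these counts were 3 and 1, against 145 and 383 of all 2330 genes. The TGF-beta co-receptor tgfbr3 had 142 and 477 CPM (3.35-fold, 3.22 to 3.49) and the BMP receptor bmpr2b 55.1 and 184 CPM (3.35-fold, 3.14 to 3.57). The insulin-like growth factor receptor igf1ra had 42.1 and 154 CPM, the insulin receptor insra 72.6 and 183 CPM, and erbb2, the neuregulin co-receptor, 66.5 and 169 CPM. Of 12 tested collagen genes 6 were at least 2-fold higher at expansion, among them col6a3 (57.4 and 163 CPM) and the basement membrane chain col4a2 (84.1 and 188 CPM), and of 10 laminin and integrin genes 5, among them itga5 (248 and 519 CPM). Relative to the median gene 1 of 12 collagen genes and none of the 10 laminin and integrin genes was. In the aryl hydrocarbon receptor list 4 of 6 genes were higher at expansion, and 1 of 6 relative to the median gene. The receptor ahr2 had 1624 CPM at 10 mm, 517 at 14 mm, 1579 at 18 mm and 741 at 28 mm (3.05-fold, 2.99 to 3.12), and its targets cyp1b1 1265, 405, 830 and 288 CPM and tiparp 962, 307, 643 and 215 CPM. Cells with ahr2 held cyp1b1 in 48.1% against 32.8% of cells without it at establishment, and in 68.8% against 48.4% at expansion, with median depths of 6893 and 6619 UMIs and of 4942 and 4723 UMIs. The transcription factor stat3 had 410 and 970 CPM and the heat shock protein hsph1 222 and 713 CPM.

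**Figure D4:**
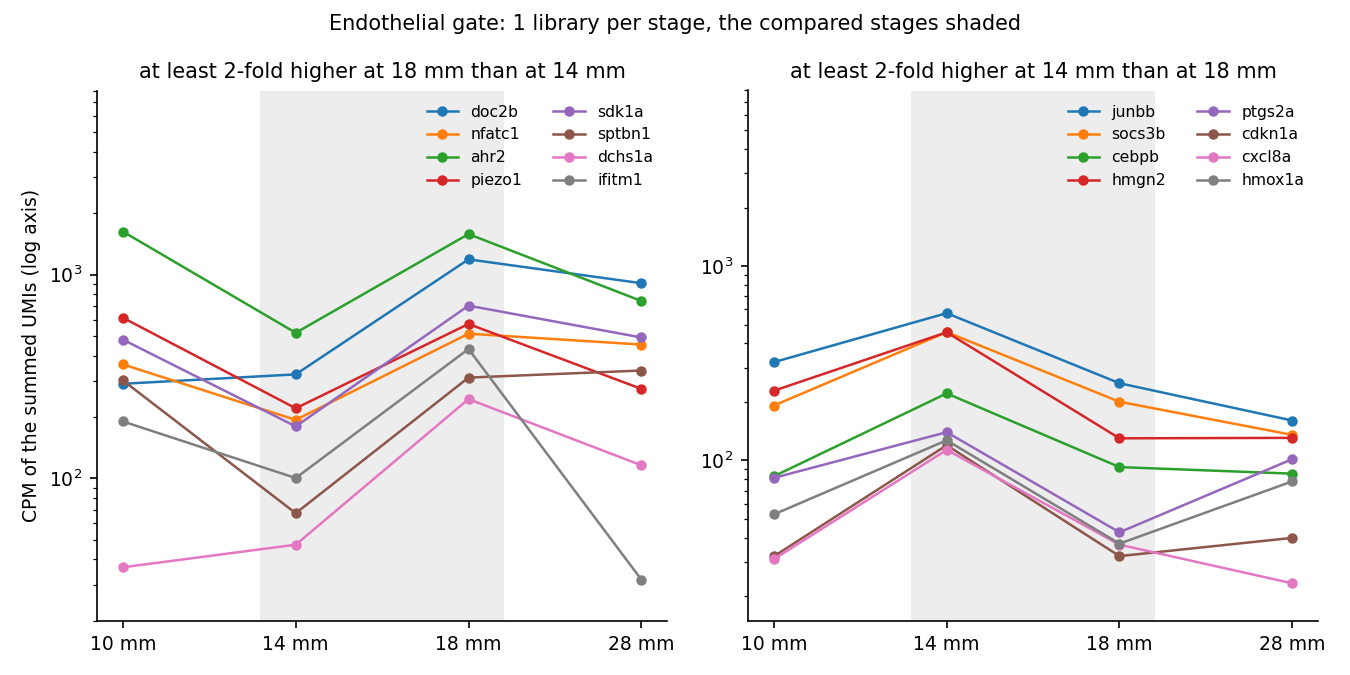
CPM of the summed UMIs of the EC gate (log axis) in the 4 libraries, 1 per stage, for 8 genes at least 2-fold higher at 18 mm (left) and 8 at least 2-fold higher at 14 mm (right), with the compared stages shaded. On the left doc2b goes from 323 to 1187 CPM and piezo1 from 220 to 572, and on the right hmgn2 from 456 to 130 and cxcl8a from 113 to 36.9.

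The genes higher at establishment in the EC gate included several of inflammation. Of 15 tested genes of the interferon and inflammation list 3 were at least 2-fold higher at establishment and 2 at expansion. Relative to the median gene 6 were higher at establishment, against 383 of all 2330 genes, and none at expansion. Of the heat shock and DnaJ genes 2 of 31 were at least 2-fold higher at expansion and none at establishment, against 23.9% and 3.95% of all genes. Relative to the median gene these counts were 1 and 4, against 145 and 383 of all 2330 genes. The cell cycle inhibitor cdkn1a had 32.2 CPM at 10 mm, 120 at 14 mm, 32.2 at 18 mm and 40.0 at 28 mm (3.72-fold, interval 3.47 to 3.98). The neutrophil-attracting chemokine cxcl8a had 31.1, 113, 36.9 and 23.3 CPM, the prostaglandin synthase ptgs2a 81.4, 140, 42.7 and 102 CPM, and the haem oxygenase hmox1a 52.8, 127, 37.3 and 78.1 CPM. Each had its highest level of the 4 libraries at 14 mm, which follows in part from their choice as higher at 14 mm than at 18 mm. They were found in 19.6%, 11.6%, 18.3% and 18.2% of the cells at establishment and in 6.08%, 4.97%, 7.13% and 6.56% at expansion, at 2500 UMIs. Neutrophil markers in the gate summed to 30.7 and 7.71 CPM over 8 genes and macrophage markers to 110 and 35.09 CPM over 12 genes. Both sums were thus lower at expansion too, and the part of such cells or their RNA in the levels above was not tested. The chemokine ccl35.1 (143 and 22.9 CPM) was found in only 1.44% and 0.65% of the cells.

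Immediate early genes respond within minutes to stimuli including tissue dissociation. Of 41 tested, 7 were at least 2-fold higher at establishment and 2 at expansion, against 3.95% and 23.9% of all genes. Relative to the median gene these counts were 12 and none, against 383 and 145 of all 2330 genes. In the median cell immediate early genes took 2.40% of the UMIs at establishment and 1.64% at expansion. junbb had 573 and 250 CPM (2.29-fold, 2.23 to 2.36), socs3b, an inhibitor of cytokine signalling, 457 and 201 CPM, and cebpb 221 and 92.5 CPM. jun (1364 and 671 CPM) and atf3 (1219 and 599 CPM) were just past the limit, with intervals from 2.00 to 2.07. In the CM gate none of 37 immediate early genes was at least 2-fold higher at establishment and 5 were at expansion, against 9.05% and 11.0% of all genes there. Their median log2 ratio was 0.07 above that of all genes of that gate.

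Other genes higher at establishment were hmgn2, h1fx and transcripts of red blood cells. hmgn2 had 228 CPM at 10 mm, 456 at 14 mm, 130 at 18 mm and 131 at 28 mm (3.51-fold, 3.39 to 3.63), and the linker histone gene h1fx 127 and 41.4 CPM. cahz, the carbonic anhydrase of red blood cells, had 225 and 14.6 CPM (15.4-fold, 14.1 to 16.8), with 385 and 22.5 CPM in free RNA, and the 4 tested haemoglobin genes moved with it. blvrb, the biliverdin reductase and the exception, had 84.9 and 24.9 CPM, or 30.3 and 20.02 CPM without the cells with markers of another gate or haemoglobin, with 152 and 30.0 CPM in free RNA, and nppb, a CM transcript, 220 and 76.4 CPM with 563 and 254 CPM in free RNA, so that in all of these the level in free RNA was above that in the cells. For gstm.3, a glutathione transferase (198 and 53.9 CPM), the values were 74.4 and 26.5 CPM once cells with markers of another gate or smooth muscle were left out. dap1b had 591 and 221 CPM and 139 and 219 CPM in free RNA. Ribosomal protein genes took 24.2% of the UMIs of the median cell at establishment and 16.2% at expansion. Of the 81 tested, 7 were at least 2-fold higher at establishment, against 3.95% of all genes. Relative to the median gene 33 were, against 383 of all 2330 genes. None of the 7 tested keratin genes differed 2-fold, but krt18a.1 had 3299 and 1874 CPM and all 7 lay below the median gene, 4 of them at least 2-fold.

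In the epicardial gate, the transcripts of the secreted proteins clusterin and midkine, hmgn2, pcna and many nuclear oxidative phosphorylation genes were higher at establishment. Higher at expansion were wt1a, rbp4 and retinoic acid receptors, c4 and most guidance genes. This gate had the fewest cells and the widest intervals. clu, which encodes clusterin, an extracellular chaperone, had 166 CPM at 10 mm, 1574 at 14 mm, 106 at 18 mm and 22.5 at 28 mm, a 14.8-fold difference between the compared stages (interval 13.5 to 16.2). It was found in 32.9% of the cells at establishment (27.1% to 39.1% by counting) and 19.7% at expansion (16.6% to 23.0%), against 6.60% and 7.95% in the EC gate, so the level differed more than the share of cells. mdka, a midkine growth factor, had 542, 2006, 248 and 154 CPM (8.09-fold, 7.61 to 8.60) and was found in 66.3% and 32.8% of the cells, against 30.6% and 28.5% of those of the EC gate. The folds were smaller with equal weight per cell: with each cell thinned to 2500 UMIs clu had 1015 and 136.96 CPM and mdka 1402 and 259.8 CPM. No single cell held more than 9.65% of the clu UMIs at establishment or 4.71% of those of mdka.

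At establishment some genes were found more often in the cells with clu. mdka was found in 64 of 82 cells with clu (78.0%) and in 60.5% of the 167 without it. The matrix protein fibronectin, fn1a, was found in 28.0% and 6.59%, the chemokine cxcl8a in 37.8% and 13.8%, and pcna in 25.6% and 14.4%. anxa2a was found in nearly all cells of both kinds, in 96.3% and 94.6%. Cells with clu were deeper before thinning, with a median of 18723.5 UMIs against 9069, and the part of depth in these shares was not tested beyond the thinning. At expansion mdka was found in 50.4% of cells with clu and in 28.5% of those without, fn1a in 10.6% and 6.97%, and cxcl8a in 9.76% and 8.37%. The other way went pcna, unlike at establishment, with 4.88% and 11.8%, and anxa2a with 66.7% and 83.5%. fn1a itself had 179 and 36.1 CPM (4.97-fold, 4.20 to 5.90), and cxcl8a 418 and 65.1 CPM.

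Several genes of chromatin and proliferation were higher at establishment. hmgn2 had 681 and 72.0 CPM (9.46-fold, 8.45 to 10.6), the histone variant gene h2afvb 243 and 36.9 CPM, and the replication clamp pcna 199 and 53.9 CPM. The chromatin proteins hmgb2a (383 and 106 CPM) and hmgb2b (172 and 42.9 CPM) and the tubulin tubb2b (170 and 33.8 CPM) were at least 2-fold higher at establishment. They were 3 of the 4 tested genes in a list of 35 for the G2 and M phases, against 9.61% of all genes. cdkn1a, which inhibits the cycle, moved the same way as these, with 124 and 15.8 CPM. No phase was assigned to cells. Of the cytoskeleton, the actin-severing protein scinla had 102 and 7.47 CPM (13.7-fold, 9.71 to 19.8), the thymosin tmsb2 106 and 14.3 CPM and the dynein light chain dynll1 297 and 55.4 CPM. The membrane-binding protein anxa2a had 5493 and 1687 CPM, krt18a.1 1264 and 395 CPM and the other keratin krt4 1541 and 770 CPM, at the 2-fold limit.

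Of the nuclear genes of oxidative phosphorylation 33 of 55 tested were at least 2-fold higher at establishment and none at expansion, against 9.61% and 26.8% of all genes. With each cell thinned to 2500 UMIs 21 of 51 were, and without cells with markers of another gate or 20 haemoglobin UMIs 11 of 40. Antioxidant genes followed with 6 of 15 and none, among them txn (431 and 114 CPM) and the peroxiredoxin prdx6 (192 and 55.6 CPM). fabp11a, a fatty acid-binding protein of the endocardium, had 388 and 66.8 CPM, but 898 and 1750 CPM in free RNA, and cahz 114 and 8.71 CPM. tma7, a translation-associated gene, had 131 and 23.2 CPM. With cells of other markers left out clu had 1183 and 90.6 CPM, mdka 2202 and 255 CPM and hmgn2 711 and 71.0 CPM. With cells of 20 or more haemoglobin UMIs left out too, which left 133 of the 249 cells at establishment, clu had 979.8 and 109 CPM, mdka 1362 and 249 CPM and hmgn2 352 and 71.5 CPM.

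**Figure D5:**
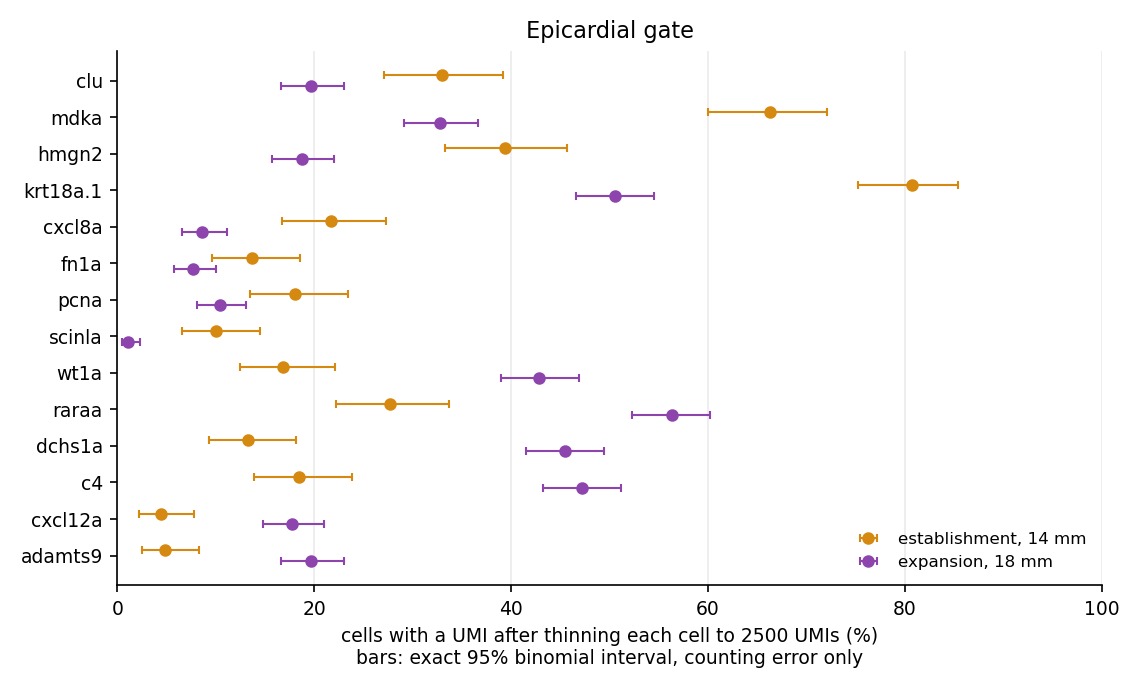
Share of epicardial-gate cells with a UMI of 14 genes after each cell was thinned to 2500 UMIs, with the exact 95% binomial interval as bars, which covers counting error only. mdka (66.3% and 32.8%) and clu (32.9% and 19.7%) were found in more cells at establishment, and wt1a (16.9% and 42.9%) and c4 (18.5% and 47.2%) in more cells at expansion.

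At expansion the epicardial transcription factor wt1a was higher. It had 265 CPM at 10 mm, 87.5 at 14 mm, 327 at 18 mm and 368 at 28 mm (3.74-fold, interval 3.33 to 4.21), and was found in 16.9% and 42.9% of the cells, against 0.298% and 1.80% in the EC gate. The epicardial factors tcf21, with 363 and 269 CPM, and tbx18, with 175 and 262 CPM, did not differ 2-fold. Neither did aldh1a2, which makes retinoic acid, with 650 and 553 CPM. Of 10 tested epicardium markers 2 were at least 2-fold higher at expansion and 1 at establishment, against 26.8% and 9.61% of all genes. Relative to the median gene these counts were 1 and 4. wt1a thus differed while tcf21 and tbx18 had ratios of 0.742 and 1.49 in the same gate. Cells with wt1a at expansion were found with the Wnt inhibitor gene frzb in 48.1% and those without in 34.7%, and with the chemokine cxcl12a in 11.2% and 22.7%, at median depths of 6893.5 and 6205 UMIs. frzb had 214 and 527 CPM in the gate and cxcl12a 30.4 and 181 CPM (5.94-fold, 4.91 to 7.24).

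Of 8 tested retinoic acid pathway genes 4 were at least 2-fold higher at expansion and none at establishment, against 26.8% and 9.61% of all genes. Relative to the median gene these counts were 3 and 1, against 302 and 456 of all 2351 genes. The retinol-binding protein rbp4 was the most abundant, with 5811 CPM at 10 mm, 4689 at 14 mm, 11020 at 18 mm and 5513 at 28 mm (2.35-fold, 2.31 to 2.39). It was also abundant in free RNA, at 313 and 2094 CPM, and in the EC gate, at 481 and 1168 CPM. The retinoic acid receptor gene raraa had 134 and 469 CPM (3.50-fold, 3.18 to 3.86), rarab 31.2 and 87.1 CPM and rarga 29.9 and 87.9 CPM. Of 7 tested complement genes 3 were higher at expansion and 1, clu, at establishment, and 2 and 1 relative to the median gene. c4 had 85.5 CPM at 10 mm, 84.0 at 14 mm, 399.7 at 18 mm and 420 at 28 mm (4.76-fold, 4.24 to 5.36), the factor D gene cfd 176 and 542 CPM, and c6 761 and 1841 CPM. c4 was found in 18.5% and 47.2% of the cells, against 0.893% and 5.24% in the EC gate.

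Genes that cut or remodel the matrix were higher at expansion in 10 of 22 tested and at establishment in 3, against 26.8% and 9.61% of all genes. Relative to the median gene these counts were 7 and 3, against 302 and 456 of all 2351 genes. adamts9, a secreted protease, had 25.4 and 136 CPM (5.37-fold, 4.35 to 6.68), the membrane protease mmp14b 35.95 and 131 CPM and the protease inhibitor timp4.3 47.3 and 188 CPM. Guidance genes were higher in 14 of 19, and in 8 relative to the median gene, among them slit3 (60.3 and 173 CPM) and sema3e (47.5 and 128 CPM). The neuregulin nrg2a, a growth factor that binds ErbB receptors, had 38.7 and 154 CPM (3.97-fold, 3.33 to 4.75). Of the tested neuregulin and ErbB genes 5 of 6 were higher at expansion, 3 of them relative to the median gene. So were 6 of 14 circadian clock genes, against 26.8% of all genes, and 3 relative to the median gene, among them per2 (121 and 304 CPM), npas2 (175 and 493 CPM) and nfil3-5 (50.3 and 173 CPM). The glucocorticoid-responsive zbtb16a had 76.4 and 343 CPM. In the EC gate 1 of 15 tested clock genes was higher at expansion and 1 at establishment, against 23.9% and 3.95% of all genes. Relative to the median gene these counts were 0 and 1. In the CM gate none of 12 was in either direction, against 11.0% and 9.05% of all genes. The hour of sampling was not given.

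The other genes the rule named at expansion were also low at 14 mm. The adipokine relative c1qtnf1 had 15.08 and 122 CPM (8.06-fold, 6.17 to 10.7) and was found in 3.21% and 26.6% of the cells. The adhesion receptor adgrd1 had 15.08 and 89.2 CPM, the cell cycle inhibitor cdkn1d 14.8 and 86.7 CPM, and dchs1a 79.9 and 452 CPM. The amino acid transporter slc7a1 had 73.9 and 394 CPM, the transcriptional repressor zbtb4 41.0 and 231 CPM and rapgef5a, an activator of Ras-family GTPases, 35.95 and 194 CPM. kaznb (55.1 and 296 CPM), nhsl2 (47.5 and 237 CPM) and fam102aa (53.8 and 265 CPM) had ratios between 4.93 and 5.38. For all 12 genes named by the rule at expansion in this gate the level at 10 mm lay above that at 14 mm. The rule picks genes low at 14 mm, so that this follows in part from their choice.

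Across the 3 gates 56 genes were at least 2-fold higher at expansion in each and 22 at establishment in each, of 1036 genes tested in all 3. dchs1a and doc2b, 2 of the genes named at expansion, were also higher in free RNA at expansion, with 4.88 and 40.7 CPM for dchs1a and 8.67 and 130 CPM for doc2b. hmgn2 and cahz were at least 2-fold higher at establishment in all 3 gates, and txn in the CM gate (3.29-fold) and the epicardial gate (3.78-fold) but not in the EC gate (1.40-fold). The 3 gates share their libraries, so that a gene that differs in all of them is not 3 independent observations, and stage and library cannot be told apart.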

How the data were processed

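Dissociated ventricles were profiled with the Chromium 3′ kit, and the authors deposited, per library, a table of UMI counts per gene and barcode, made with Cell Ranger and the GRCz11 genome with the Lawson annotation. The submitters' processing notes name version 6.1.2 and the deposited headers version 7.1.0, and whether intron reads were counted is not given in the sources used here. The counts were used as deposited, for 36351 genes. Cells passed 2500 UMIs, 600 genes and the mitochondrial limits, and no doublet caller was run. UMIs were summed per gate and library with Python 3.11.15, numpy 2.4.6, pandas 2.3.3 and scipy 1.17.1, and drawn with matplotlib 3.10.9.

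Ratios carry exact 95% binomial intervals of the split of the UMIs, which cover counting error only and not the spread between fish. Gate genes were left out of the tests. Named genes were the 12 per direction and gate with the interval bound farthest from equality, a UMI in at least 20 cells of the higher library and none of the clone-type, mitochondrial, ribosomal and haemoglobin genes. Members of lists are named in the account of their list, and those chosen for their values in CMs without other markers were chosen after these were seen. The free RNA level is that of barcodes of 10 to 100 UMIs. Shares of cells with a UMI were taken after thinning each cell to 2500 UMIs, which left out no cell. The comparison, the 59 gene lists and the named-gene rule were chosen with earlier results of these data known. The count scripts were tested on simulated data. Alternatives were another scaling, CPM minimum, cell filter and free RNA subtraction, and 4 were added after seeing the data: 3 selections of cells by markers of other types, and the removal of mitochondrial and haemoglobin features. Gene names are those of the files. No coordinates are given. The result of a gene with opposite directions in 2 gates is not reported here.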

Additional observations from a re-analysis of the deposited data

Results flagged for a closer look

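For 2 genes reported here the ratio of expansion to establishment was at least 2-fold in opposite directions in 2 gates of the same libraries, and the difference between the gates was not tested. serpinh1b, a collagen chaperone, had a ratio of 2.26 in the CM gate, from 32.7 to 74.0 CPM, and of 0.471 in the epicardial gate, from 485 to 228 CPM, with 4.56 and 7.28 CPM for serpinh1b in CMs without other markers. XLOC_041870, a locus without a gene name in the files, had a ratio of 2.46 in the CM gate, from 33.9 to 83.4 CPM, and of 0.396 in the EC gate, from 252.6 to 100.04 CPM.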

How the results depend on the processing

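No paired analysis was possible because each stage was 1 library with no replicate number shared between pools, and no library could be left out in turn. Several counts of genes moved by over 1.5 times, and the balance turned from more genes higher at expansion to more at establishment in the EC and epicardial gates relative to the median gene and in the CM gate without cells with markers of other types and with the minimum of 200 CPM. The cause was not tested except where the construction shows it (more or fewer genes tested). With a minimum of 20 CPM in place of 50, the genes higher at expansion and at establishment were 609 and 268 in the CM gate, 1072 and 188 in the EC gate, and 1266 and 445 in the epicardial gate, and with 200 CPM 24 and 78, 135 and 29, and 122 and 58. With no minimum and 10 CPM added, 657 genes of the CM gate were higher at expansion, and 987 and 400 of the epicardial gate were higher at expansion and at establishment. Relative to the median gene there were 145 and 383 in the EC gate and 302 and 456 in the epicardial gate. In the CM gate a mitochondrial limit of 12% for all cells gave 416 genes higher at expansion. Leaving out mt- genes, the mitochondrial record and haemoglobin, an alternative chosen after seeing the data, gave 383, of which 187 were among the 190 of the main count. Without cells with another gate's markers the CM counts were 53 and 80, without those or cells with 20 haemoglobin UMIs 50 and 73, without those of another gate or smooth muscle 18 and 62, and with no UMI of other types 15 and 59. Subtracting free RNA gave 144 genes higher at establishment in the EC gate. All other counts of the 3 gates stayed within 1.5 times. With 1 pool per stage, the spread between fish limits every difference and was not measured.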
